A study of Arabidopsis thaliana with 8 samples.

Results

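The stomatal lineage genes described here are 10 Arabidopsis thaliana genes that steer the making of stomata, the pores of the leaf surface. They were chosen by locus from a list and make up 10 of the 33602 genes in the deposited table of read counts. The transcription factors are SPCH (AT5G53210), MUTE (AT3G06120), FAMA (AT3G24140) and SCRM (AT3G26744). The polarity genes are BASL (AT5G60880) and POLAR (AT4G31805), and the receptor gene is TMM (AT1G80080). The peptide genes are EPF1 (AT2G20875), EPF2 (AT1G34245) and EPFL9 (AT4G12970).

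RNA was sequenced from pooled whole seedlings of 2 hybrids that share the parent C24. The pif4 hybrid is C24xpif4-101, which carries a mutant allele of the transcription factor gene PIF4, and the Col hybrid is C24xCol. Per the labels, all seeds germinated at 22 °C in short days, after which seedlings were held at 27 °C or 22 °C and taken at ZT0, the start of the light period, 7 or 4 days after sowing (day 7 and day 4 here). The 8 libraries were the pif4 hybrid on day 7 at 27 °C and at 22 °C, the pif4 hybrid on day 4 at 27 °C and at 22 °C, and the Col hybrid in the same 4 conditions. Each condition had 1 library, so each of the 3 factors was compared across 4 matched pairs, and every p-value reflects the spread among these libraries alone. The labels do not say whether the pooled seedlings of different libraries came from separate sowings, nor which generation of the cross was used. The pif4 hybrid may thus also hold a copy of PIF4 from C24, and a comparison of the hybrids is not a test of the loss of PIF4.

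Stomata arise from protodermal cells through a fixed series of steps. SPCH starts the asymmetric divisions of the lineage, and MUTE ends them and makes the guard mother cell. FAMA acts at the last symmetric division and sets guard cell fate. Each acts with the partner SCRM, also called ICE1. BASL and POLAR mark 1 side of a dividing precursor and so give its daughters different fates. EPF2 and EPF1 are secreted peptides that limit the making of stomata, EPF2 by holding back entry into the lineage. EPFL9 (stomagen) is a related peptide from the leaf interior that promotes stomata. TMM is a receptor-like protein that tunes how ERECTA family kinases read these peptides. PIF4 acts in the growth response to warmth, and in Arabidopsis it is known to lower SPCH transcription at high temperature.

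Total counts ran between 1664128 in the Col hybrid at 22 °C on day 4 and 25440561 in the Col hybrid at 27 °C on day 7. Levels are given as TMM-scaled CPM, read counts scaled to a common library size by the trimmed mean of M values (a method that only shares its letters with the gene TMM), in which the smallest signal of 3 counts stood between 0.106 CPM in the deepest library and 2.15 CPM in the shallowest. All 10 lineage genes passed the filter on low counts, which kept 19829 genes. PIF4 counts did not set the hybrids apart: PIF4 had 157, 62.5, 186 and 79.5 CPM in the pif4 hybrid (day 7 at 27 °C and 22 °C, then day 4 at 27 °C and 22 °C), against 187, 72.8, 176 and 97.3 CPM in the Col hybrid. The labels do not say which part of PIF4 the allele pif4-101 affects, so these counts over the whole gene do not check the label. All 13 guard cell genes, all 7 epidermis genes and 10 of 10 genes of dividing cells had counts in every library, as did 7 or 8 of the 8 root genes.

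The level per length of transcript differed widely between the lineage genes. As the mean over the 8 libraries in CPM per kilobase of exon, EPFL9 was highest at 51.8, followed by SCRM at 25.9, FAMA at 11.1, TMM at 10.1 and POLAR at 6.85. The others were lower, with EPF2 at 3.75, BASL at 3.20, EPF1 at 2.27, SPCH at 1.74 and MUTE at 1.50. SPCH and MUTE were thus the scarcest of the 10, and MUTE rested on 4 to 32 counts per library.

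**Figure D1:**
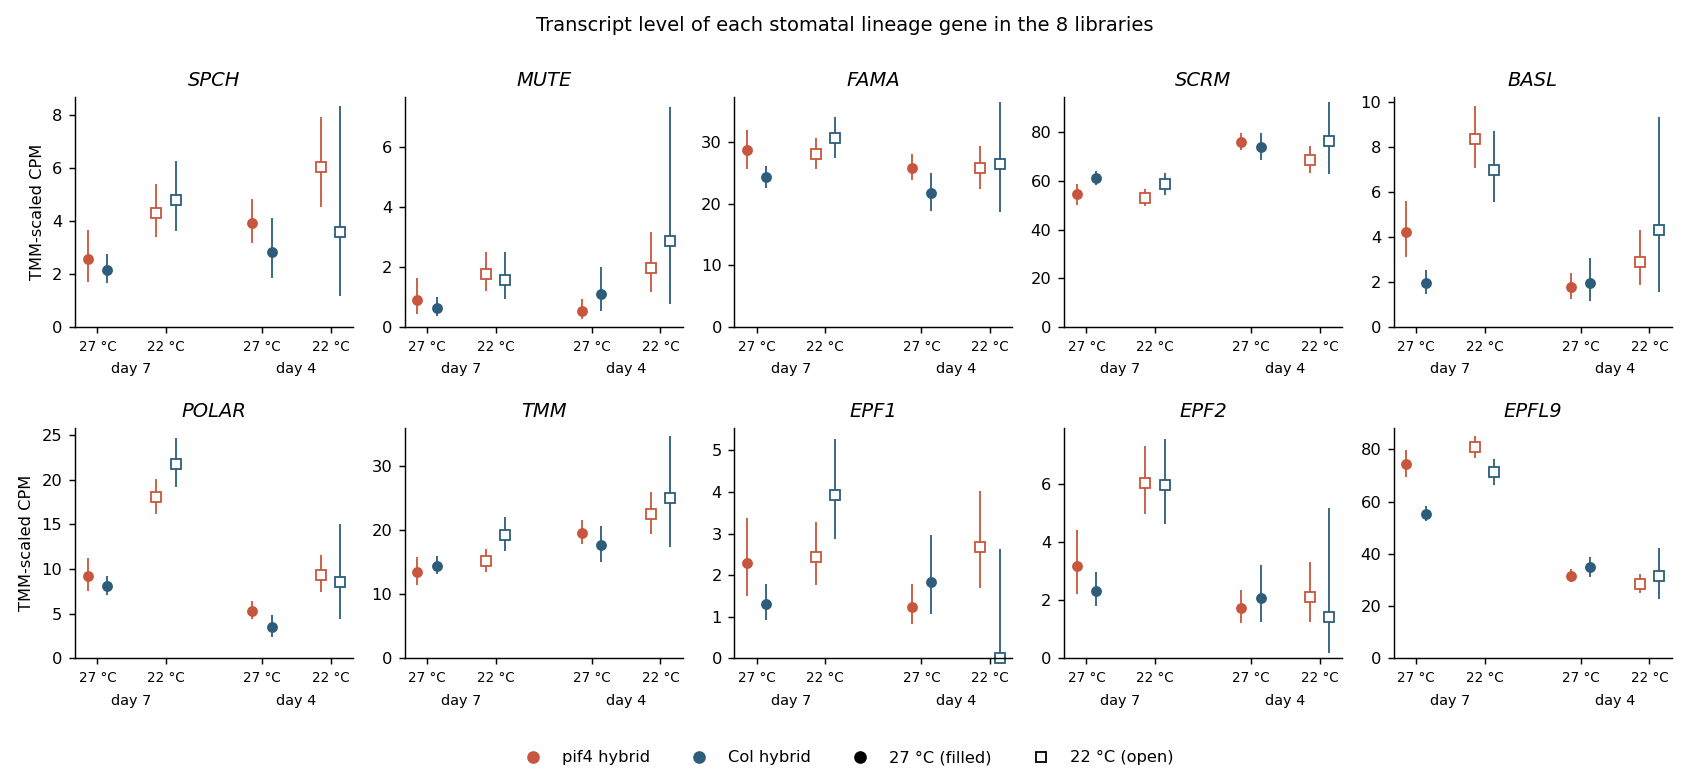
Level of each of the 10 genes in TMM-scaled CPM (vertical axis, from 0) in the 8 libraries, by day and temperature, with the pif4 hybrid in red and the Col hybrid in blue. Filled circles are 27 °C, open squares are 22 °C and bars are 95% exact Poisson intervals that cover counting error only. MUTE lies lower in all 4 libraries at 27 °C than in any at 22 °C, and EPFL9 is higher in all 4 libraries of day 7 than in any of day 4.

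At 27 °C, 5 of the 10 genes fell and 0 rose. These were SPCH, MUTE, BASL, POLAR and EPF2, with levels at 27 °C that were 0.38 to 0.57 times those at 22 °C. FAMA, SCRM, TMM, EPF1 and EPFL9 did not pass the test (edgeR quasi-likelihood F-test, Benjamini-Hochberg adjusted p under 0.05 over all genes tested). Of all genes tested 19.2% fell and 19.5% rose, and the median log2 fold change was −0.79 over the 10 lineage genes and 0.01 over all genes. In whole seedlings, fewer cells of the lineage and less RNA per cell cannot be told apart.

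Among the transcription factors, SPCH had 2.56 and 3.94 CPM in the pif4 hybrid and 2.15 and 2.82 CPM in the Col hybrid at 27 °C (day 7, then day 4), against 4.32 and 6.05 CPM in the pif4 hybrid and 4.81 and 3.58 CPM in the Col hybrid at 22 °C. Each pair was lower at 27 °C, but the groups overlapped, because the pif4 hybrid at 27 °C on day 4 stood above the Col hybrid at 22 °C on day 4, a value that rests on 5 counts. The log2 fold change of SPCH was −0.80 (SE 0.21, adjusted p = 0.00857, edgeR, 4 pairs). Without the Col hybrid library at 22 °C on day 7 the adjusted p of SPCH was 0.0798.

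MUTE had 0.882 and 0.531 CPM in the pif4 hybrid and 0.635 and 1.09 CPM in the Col hybrid at 27 °C (day 7, then day 4), against 1.77 and 1.98 CPM in the pif4 hybrid and 1.57 and 2.86 CPM in the Col hybrid at 22 °C. All 4 libraries at 27 °C lay below all 4 at 22 °C, as did those of 8.72% of all genes tested. The log2 fold change of MUTE, −1.38 (SE 0.32, adjusted p = 0.00497, edgeR), had the greatest size among the 10.

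FAMA, which acts last in the series, had 28.7 and 25.8 CPM in the pif4 hybrid and 24.3 and 21.7 CPM in the Col hybrid at 27 °C (day 7, then day 4), against 28.0 and 25.7 CPM in the pif4 hybrid and 30.6 and 26.5 CPM in the Col hybrid at 22 °C. The pairs of the pif4 hybrid were nearly level and those of the Col hybrid were lower at 27 °C. The log2 fold change of FAMA was −0.13 (95% interval −0.36 to 0.10, adjusted p = 0.349, edgeR).

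SCRM, the shared partner, had 54.4 and 76.2 CPM in the pif4 hybrid and 61.2 and 74.1 CPM in the Col hybrid at 27 °C (day 7, then day 4), against 53.1 and 68.7 CPM in the pif4 hybrid and 58.8 and 76.6 CPM in the Col hybrid at 22 °C. The temperatures overlapped throughout. The estimate for SCRM was 0.05 on the log2 scale (95% interval −0.15 to 0.25, adjusted p = 0.680, edgeR).

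Both polarity genes fell. BASL had 4.24 and 1.77 CPM in the pif4 hybrid and 1.94 and 1.96 CPM in the Col hybrid at 27 °C (day 7, then day 4), against 8.37 and 2.91 CPM in the pif4 hybrid and 7.00 and 4.29 CPM in the Col hybrid at 22 °C. It was lower at 27 °C in 4 of 4 pairs, with the widest gap in the Col hybrid on day 7, and overlapped only through the difference between days. Its log2 fold change was −1.20 (SE 0.26, adjusted p = 0.00326, edgeR).

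POLAR had 9.26 and 5.35 CPM in the pif4 hybrid and 8.08 and 3.48 CPM in the Col hybrid at 27 °C (day 7, then day 4), against 18.1 and 9.31 CPM in the pif4 hybrid and 21.8 and 8.59 CPM in the Col hybrid at 22 °C. It was lower at 27 °C in 4 of 4 pairs. POLAR fell by 1.12 on the log2 scale (SE 0.16, adjusted p = 0.000234, edgeR), the smallest p among the 10.

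The POLAR value carries a limit of counting. In the TAIR10.1 annotation its exons overlap those of AT4G31810, a gene on the opposite strand, over 310 bases of its 1531 exonic bases. Stranded and unstranded kits were both used without a record of which library had which, so reads of the 2 genes may be mixed. The temperature log2 fold change of AT4G31810 was −0.25 (adjusted p = 0.135, edgeR).

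**Figure D2:**
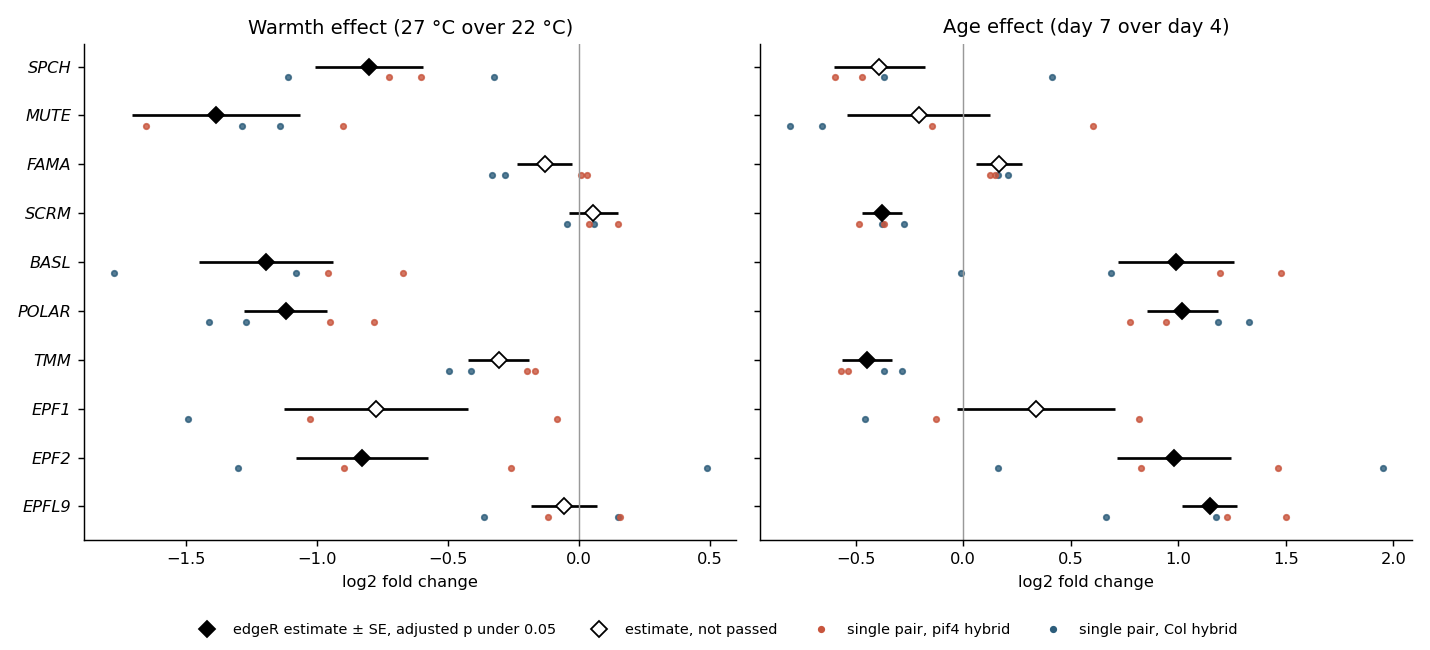
Log2 fold change (horizontal axis) of each gene for warmth (left, 27 °C over 22 °C) and age (right, day 7 over day 4). Diamonds with bars are the edgeR estimates ± SE, filled where adjusted p was under 0.05, and dots are the single pairs of libraries of the pif4 hybrid (red) and the Col hybrid (blue), without the pairs of EPF1 that hold its library of 0 counts. SPCH, MUTE, BASL, POLAR and EPF2 lie left of 0 for warmth, while BASL, POLAR, EPF2 and EPFL9 lie right of 0 for age.

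The receptor gene TMM had 13.5 and 19.6 CPM in the pif4 hybrid and 14.5 and 17.7 CPM in the Col hybrid at 27 °C (day 7, then day 4), against 15.2 and 22.6 CPM in the pif4 hybrid and 19.3 and 25.0 CPM in the Col hybrid at 22 °C. All 4 pairs were lower at 27 °C, by a small amount each, and the groups overlapped. TMM had a log2 fold change of −0.31 (SE 0.12) and missed the threshold narrowly (adjusted p = 0.0505, edgeR). The call depends on settings: with scaling by relative log expression the adjusted p was 0.0458.

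EPF2, a peptide of early lineage cells, had 3.18 and 1.73 CPM in the pif4 hybrid and 2.33 and 2.06 CPM in the Col hybrid at 27 °C (day 7, then day 4), against 6.04 and 2.10 CPM in the pif4 hybrid and 5.95 and 1.43 CPM in the Col hybrid at 22 °C. It was lower at 27 °C in both pairs of day 7, nearly level in the pif4 hybrid on day 4, and higher in the Col hybrid on day 4, where the library at 22 °C held 2 counts. The log2 fold change of EPF2 was −0.83 (SE 0.25, adjusted p = 0.0200, edgeR). The call was lost on leaving out any of the 4 libraries of day 7, with an estimate of −0.55 (adjusted p = 0.150) without the Col hybrid at 27 °C, −0.65 (0.157) without the Col hybrid at 22 °C, −0.81 (0.0907) without the pif4 hybrid at 27 °C and −0.74 (0.0846) without the pif4 hybrid at 22 °C (edgeR).

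EPF1 had 2.29 and 1.24 CPM in the pif4 hybrid and 1.31 and 1.85 CPM in the Col hybrid at 27 °C (day 7, then day 4), against 2.44 and 2.68 CPM in the pif4 hybrid and 3.94 and 0 CPM in the Col hybrid at 22 °C. The 0 stands in the shallowest library, where the floor of 3 counts is 2.15 CPM and the two-sided 95% Poisson interval, drawn in the plot of levels, reaches 2.64 CPM. The other 3 pairs were lower at 27 °C. The log2 fold change of EPF1 was −0.77 (SE 0.35, adjusted p = 0.0976, edgeR). On leaving out each library in turn this estimate ran between −1.02 and −0.39, with adjusted p between 0.0376 and 0.540. It was −0.92 (adjusted p = 0.0376) without the library of 0 counts, −0.87 (0.0466) without the Col hybrid at 27 °C on day 4, −0.39 (0.540) without the Col hybrid at 22 °C on day 7 and −0.46 (0.368) without the Col hybrid at 27 °C on day 7 (edgeR).

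EPFL9, the peptide that promotes stomata, had 74.4 and 31.7 CPM in the pif4 hybrid and 55.4 and 34.9 CPM in the Col hybrid at 27 °C (day 7, then day 4), against 80.7 and 28.4 CPM in the pif4 hybrid and 71.3 and 31.5 CPM in the Col hybrid at 22 °C. It was lower at 27 °C on day 7 and higher on day 4 in both hybrids. For EPFL9 the estimate was −0.06 on the log2 scale (95% interval −0.33 to 0.22, adjusted p = 0.753, edgeR).

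Depth moved with temperature in 3 of the 4 pairs, in which the library at 27 °C was the deeper one. In the pif4 hybrid on day 7 it was the shallower one, with 11125696 counts at 27 °C and 17884174 at 22 °C. In that pair the log2 ratio of 27 °C over 22 °C was −0.72 for SPCH, −0.90 for MUTE, −0.96 for BASL, −0.95 for POLAR and −0.90 for EPF2. It was −0.17 for TMM, −0.12 for EPFL9, −0.08 for EPF1, 0.03 for FAMA and 0.04 for SCRM. SPCH, MUTE, BASL and EPF2 were called with only 5, 4, 6 and 2 counts in the shallowest library. Without that library 6 of the 10 genes fell, the sixth being EPF1. Scaling by library totals alone moved the median of all genes to 0.15 and the split to 5512 genes that rose and 2318 that fell, against 3866 and 3810 under the scaling used here, while 5 of the 10 lineage genes again fell and 0 rose.

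Ratios of 2 lineage genes inside a library do not depend on scaling. They were chosen after the levels had been seen, and all are ratios of counts per kilobase of exon. SPCH stood at 4.07 to 5.98% of its partner SCRM at 27 °C, against 5.41 to 10.2% at 22 °C, and at 9.64 to 16.6% of FAMA at 27 °C, against 14.7 to 25.6% at 22 °C. BASL stood at 12.8 to 27.6% of FAMA at 27 °C, against 21.1 to 55.8% at 22 °C. POLAR stood at 23.5 to 82.1% of TMM at 27 °C, against 41.0 to 142% at 22 °C.

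All 4 ratios were lower at 27 °C in 4 of 4 pairs. Their numerators had been called lower at 27 °C and their denominators had not, so these falls restate those calls and add no support. The mean log2 difference of the ratios, 27 °C minus 22 °C, was −0.77 ± 0.38 for SPCH over SCRM, −0.57 ± 0.36 for SPCH over FAMA, −1.03 ± 0.35 for BASL over FAMA and −0.80 ± 0.17 for POLAR over TMM (SD, n = 4 pairs). FAMA over TMM was higher at 27 °C in 4 of 4 pairs, by 0.18 ± 0.06 on the log2 scale (SD, n = 4). With 4 pairs the exact sign-flip permutation test, two-sided, cannot go below p = 0.125, which each of these 5 reached (0.15 after Benjamini-Hochberg adjustment over the 6 ratios tested). The sixth, EPF2 over EPFL9, was lower in 3 of 4 pairs by a mean of −0.46 ± 0.61 on the log2 scale (SD, n = 4, exact permutation p = 0.25). A further ratio that was computed, EPF1 over EPFL9, was not tested, since EPF1 had 0 counts in the shallowest library. It stood at 3.51 and 4.45% in the pif4 hybrid and 2.68 and 6.02% in the Col hybrid at 27 °C (day 7, then day 4), against 3.44 and 10.7% in the pif4 hybrid and 6.28 and 0% in the Col hybrid at 22 °C, and was lower at 27 °C in 2 of 4 pairs.

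**Figure D3:**
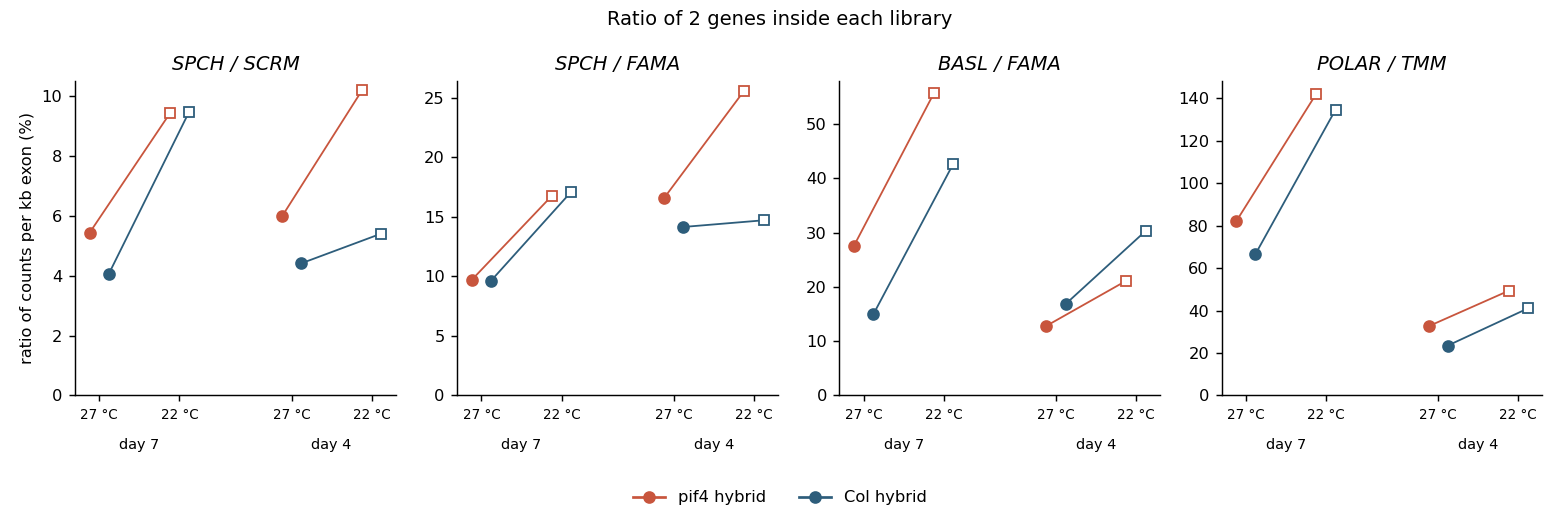
Ratio of 2 genes inside each library, as counts per kilobase of exon in percent (vertical axes, from 0), by day and temperature. Lines join the libraries of a pair, filled circles are 27 °C, open squares are 22 °C, red is the pif4 hybrid and blue the Col hybrid. Each line is lower at its 27 °C end.

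The effect of warmth was also estimated on each day in a model with an age-by-temperature term. On day 7 SPCH fell by 0.94 on the log2 scale (SE 0.26, adjusted p = 0.0130), MUTE by 1.26 (SE 0.40, adjusted p = 0.0253), BASL by 1.43 (SE 0.28, adjusted p = 0.00163), POLAR by 1.20 (SE 0.19, adjusted p = 0.000364) and EPF2 by 1.16 (SE 0.25, adjusted p = 0.00283, all edgeR). On day 4 POLAR alone of the 10 fell, by 0.97 (SE 0.26, adjusted p = 0.0290), while MUTE had an estimate of −1.59 (SE 0.51, adjusted p = 0.0567, edgeR). Of all genes tested, 18.1% fell on day 7 and 6.14% on day 4.

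EPF2 showed the widest gap between the days, with an estimate of −1.16 on day 7 and −0.08 on day 4. The age-by-temperature term itself passed for 0 of the 10 genes and for 0.267% of all genes tested. For EPF2 this term was −1.08 (SE 0.47) with an unadjusted p of 0.0363 and an adjusted p of 0.518 (edgeR). Thus a difference between the days was not detected for any of the 10 at this number of libraries.

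**Figure D4:**
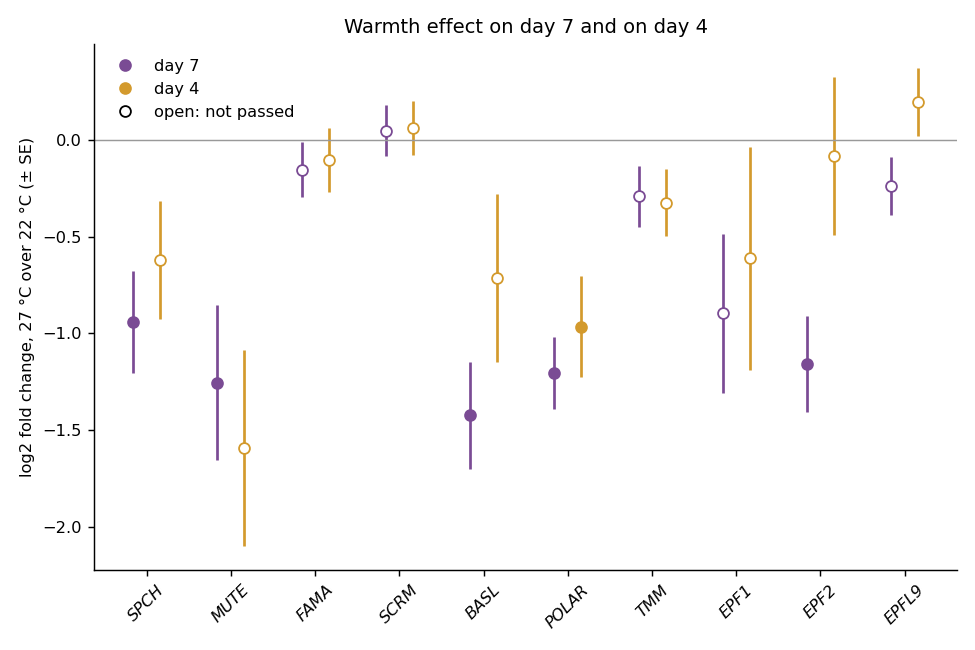
Log2 fold change of 27 °C over 22 °C ± SE (vertical axis) for each gene on day 7 (purple) and on day 4 (ochre), filled where adjusted p was under 0.05 (edgeR). On day 7 SPCH, MUTE, BASL, POLAR and EPF2 are filled and below 0, and on day 4 POLAR alone is filled.

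The days differed in both directions. On day 7, relative to day 4, EPFL9, POLAR, BASL and EPF2 rose and SCRM and TMM fell, so 4 of 10 rose and 2 fell, against 24.8% and 24% of all genes tested. SPCH, MUTE, FAMA and EPF1 did not pass. Of the 4 transcription factors, SCRM alone passed.

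EPFL9 rose most, with 74.4 and 55.4 CPM at 27 °C and 80.7 and 71.3 CPM at 22 °C on day 7 (pif4 hybrid, then Col hybrid), against 31.7 and 34.9 CPM at 27 °C and 28.4 and 31.5 CPM at 22 °C on day 4. All libraries of day 7 lay above all of day 4, as did those of 15.8% of all genes tested. The log2 fold change was 1.15 (SE 0.13, adjusted p = 3.72e-05, edgeR).

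POLAR stood at 8.08 to 21.8 CPM on day 7, against 3.48 to 9.31 CPM on day 4, and was higher on day 7 in 4 of 4 pairs, and rose by 1.02 on the log2 scale (SE 0.16, adjusted p = 0.000367, edgeR). BASL stood at 1.94 to 8.37 CPM on day 7, against 1.77 to 4.29 CPM on day 4. Its log2 fold change was 0.99 (SE 0.27, adjusted p = 0.00918, edgeR). BASL was higher on day 7 in 3 of 4 pairs and level in the Col hybrid at 27 °C, and its call was lost without the pif4 hybrid at 22 °C on day 4 (adjusted p = 0.0914) or at 27 °C on day 7 (0.0701).

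EPF2 stood at 2.33 to 6.04 CPM on day 7, against 1.43 to 2.10 CPM on day 4, without overlap, as for 15.8% of all genes tested in that direction. The lowest value rests on 2 counts in the Col hybrid at 22 °C on day 4. Its 95% Poisson interval, 0.173 to 5.17 CPM, reaches into the range of day 7. EPF2 rose by 0.98 on the log2 scale (SE 0.27, adjusted p = 0.00859, edgeR). Without the pif4 hybrid at 22 °C on day 4 the adjusted p was 0.0700, and the count of genes that rose was then 2 of 10, EPFL9 and POLAR.

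SCRM stood at 53.1 to 61.2 CPM on day 7, against 68.7 to 76.6 CPM on day 4, again without overlap, as for 14.2% of all genes tested in that direction. It fell by 0.38 on the log2 scale (SE 0.09, adjusted p = 0.00507, edgeR). TMM stood at 13.5 to 19.3 CPM on day 7, against 17.7 to 25.0 CPM on day 4, lower in 4 of 4 pairs, and fell by 0.45 (SE 0.12, adjusted p = 0.00698, edgeR). The polarity genes and EPF2 thus had their highest levels on day 7 at 22 °C, the condition in which both libraries of each stood above every other library of that gene.

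Estimated at each temperature, the age effect at 27 °C passed for POLAR (0.90), EPFL9 (0.96), SCRM (−0.38) and TMM (−0.43) on the log2 scale. At 22 °C it passed for POLAR (1.14), EPFL9 (1.39), SCRM (−0.37), TMM (−0.47), BASL (1.39) and EPF2 (1.63). Genes that rose with age made up 15.3% of all genes tested at 27 °C and 20.6% at 22 °C, and genes that fell 13.3% and 19.2%. The difference between temperatures is the age-by-temperature term given above, which passed for none of the 10. At 27 °C the age effect also takes in time spent in warmth.

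Between the hybrids 0 of the 10 genes passed, and of all genes tested 1, or 0.00504%, did. Estimates for the pif4 hybrid over the Col hybrid ran between −0.12 for MUTE and 0.35 for BASL on the log2 scale, with unadjusted p between 0.200 and 0.976, so none was under 0.05 (edgeR). DESeq2 also called 0 of the 10. The 95% interval of this difference was −0.22 to 0.68 for SPCH, −0.83 to 0.58 for MUTE, −0.21 to 0.91 for BASL, −0.25 to 0.44 for POLAR and −0.31 to 0.10 for SCRM. These intervals take in differences of either sign, so the hybrids are not shown to be alike. Since the pif4 hybrid may hold a copy of PIF4 from C24, this comparison does not test whether PIF4 is needed.

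Whether warmth acted differently in the hybrids was asked of the genotype-by-temperature term, which passed for 0 of the 10 genes and 0 of all genes tested (unadjusted p for POLAR 0.0843, the lowest of the 10, by edgeR; DESeq2 also called 0). The estimate was above 0 for 9 of the 10 genes, against 10275 of the 19829 genes tested. Its median was 0.31 over the 10 genes and 0.01 over all genes. The estimate was 0.56 (SE 0.30) for POLAR and 0.62 (SE 0.52) for BASL. Within the pif4 hybrid, MUTE fell by 1.51 (SE 0.45, adjusted p = 0.0474) and POLAR by 0.87 (SE 0.20, adjusted p = 0.0190), with 6.9% of all genes falling. BASL did not pass there, at −0.93 (SE 0.34, adjusted p = 0.0824). Within the Col hybrid, BASL fell by 1.55 (SE 0.40, adjusted p = 0.0302) and POLAR by 1.43 (SE 0.22, adjusted p = 0.00322, edgeR), with 6.46% of all genes falling. MUTE did not pass there, at −1.23 (SE 0.52, adjusted p = 0.142, edgeR).

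For SPCH the estimates on the log2 scale were −0.66 (SE 0.28, adjusted p = 0.136) in the pif4 hybrid and −0.996 (SE 0.33, adjusted p = 0.0736) in the Col hybrid, and the term for their difference was 0.34 (95% interval −0.60 to 1.28, edgeR). The genotype-by-age term passed for 0 of the 10 genes and 0.0908% of all genes. The lowest unadjusted p of that term, 0.0501 by edgeR, was that of EPFL9 (estimate 0.48, SE 0.22). EPFL9 stood higher in the pif4 hybrid than in the Col hybrid on day 7 and lower on day 4 at both temperatures.

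The rest of the pathway was read from 10 further lists with 85 genes in all. Their counts stand beside the 19.5% of all genes tested that rose at 27 °C and the 19.2% that fell, and a count near those shares is no result about a list. Of 10 other EPF and EPFL peptide and protease genes, 5 passed the filter, 1 rose at 27 °C and 2 fell. SDD1, a protease that limits stomatal density, fell by 1.17 on the log2 scale, AT4G37810, annotated as an EPF-like peptide, fell by 1.18, and CHAL (EPFL6), a peptide known from stems, rose by 1.13. Of 7 receptor kinase genes 2 rose and 0 fell, the co-receptor genes SERK4 (0.43) and SERK2 (0.35).

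Of 7 MAP kinase cascade genes, which carry the signal inside the cell, 6 passed the filter, 2 rose and 0 fell, namely YDA (0.41) and MPK6 (0.39). Of 9 partners of the polarity proteins 4 rose and 0 fell. Among them were the phosphatase genes BSL1 (0.51), BSL3 (0.50) and BSL2 (0.48). BASL and POLAR themselves fell, as given above. Of 9 other lineage regulators 8 passed the filter, 1 rose, MYB88 (0.35), a factor that limits guard mother cell division, and 1 fell, TCX2 (−0.56), also called SOL2 and known to act beside SPCH.

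Of 13 mature guard cell genes 3 rose and 3 fell, with a median of 0.02, so either count of 13 was near the share over all genes. The anion channel gene SLAC1 rose by 1.46 and the transporter gene CHX20 by 0.68, while AT1G22690, annotated as a gibberellin-regulated family protein, fell by 1.09. The summed level of this list was 1341 to 2115 CPM at 27 °C, against 1682 to 2810 CPM at 22 °C. AT1G22690, the highest of the genes just named, reached at most 98.8 CPM, so this sum rests mainly on other genes of the list. Of the 13 estimates 7 were above 0 and 6 below, so the sum does not describe the list as a whole. Of 7 epidermis genes 1 rose, the receptor kinase gene ACR4 (0.36), and 0 fell, with a summed level of 1397 to 1725 CPM at 27 °C, against 1546 to 1900 CPM at 22 °C.

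Genes of dividing cells also fell. Of 10 such genes 9 fell at 27 °C and 0 rose, with a median of −0.86. The replication genes PCNA1, MCM6 and MCM7 fell by 1.28, 1.02 and 0.86. None of the list was at 0 in any library, and its summed level was 81.8 to 105.9 CPM at 27 °C, against 121.6 to 171.5 CPM at 22 °C, without overlap. Its part in the fall of SPCH, MUTE, BASL, POLAR and EPF2 was not tested. Of 5 young leaf growth genes ANT fell by 0.39 and 0 rose, and of 8 root genes 7 passed the filter and 0 the test.

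**Figure D5:**
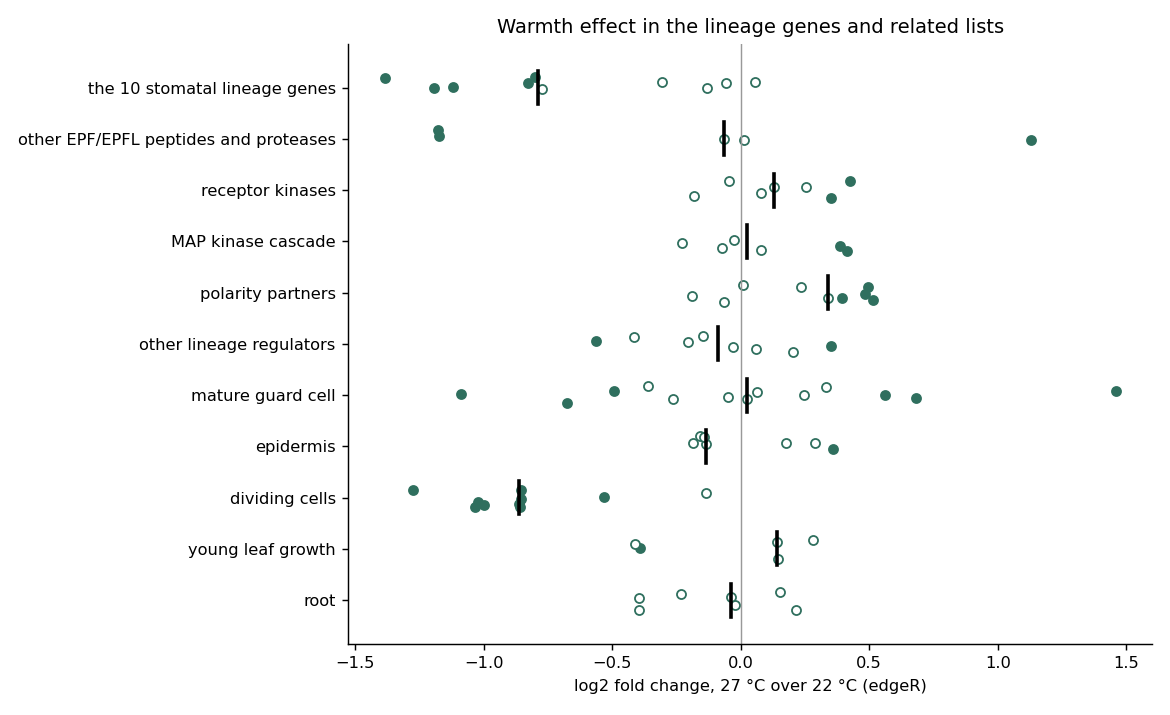
Log2 fold change of 27 °C over 22 °C (horizontal axis, edgeR) for the 10 lineage genes and for the genes of each further list that passed the filter on low counts. Filled points had an adjusted p under 0.05 and black bars are the medians. The medians of the lineage genes (−0.79) and of dividing cells (−0.86) lie left of the others.

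For age the shares over all genes tested were 24.8% that rose and 24% that fell. On day 7, relative to day 4, 5 of 7 receptor kinase genes fell and 0 rose, among them ERL1 (−0.99), ERL2 (−0.82) and BAK1 (−0.50). Of the MAP kinase genes 3 of the 6 that passed the filter fell (YDA by 0.67, MKK5 by 0.41, MPK6 by 0.37) and 0 rose. Of the polarity partners 4 of 9 fell, BSL2 by 0.85, and 2 rose. TMM, which works with the receptor kinases, fell beside these 5, while ER (ERECTA) did not pass (−0.10, adjusted p = 0.519, edgeR). BASL and POLAR rose, as did 2 of the polarity partners, while BSL1, BSL2 and BSL3 fell.

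AT4G37810 rose by 1.46, the 1 of the 5 peptide and protease genes past the filter that changed with age. Other regulators had 2 of 8 genes past the filter that fell, near the share over all genes, RBR1 by 0.44 and the SCRM paralogue SCRM2 by 0.34. Of the guard cell genes 5 of 13 fell, KAT1 by 0.86, CHX20 by 0.52 and MYB60 by 0.45, and 1 rose. Of the epidermis genes 4 of 7 fell, FDH by 0.49, ACR4 by 0.41 and CER6 by 0.38. Of dividing cell genes 1 of 10 rose, KNOLLE by 0.63, and 2 fell, MCM7 by 0.39 and MCM5 by 0.36, likewise near that share.

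Root genes had 4 of the 7 past the filter that fell, COBL9 by 2.04, SCR by 0.96 and CASP1 by 0.50, and a summed level of 68.8 to 90.4 CPM on day 7, against 102.9 to 160.3 CPM on day 4. Of the young leaf growth genes GRF1 fell by 0.54. The part of the root list and the other lists in the age changes of the lineage genes was not tested.

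The 300 bases upstream of each annotated start were read from TAIR10.1 and searched on both strands for the letters that PIF factors are known to bind, the G-box CACGTG and the PBE-box CACATG. The windows of EPF2, BASL and SPCH are shown because all 3 genes fell at 27 °C and they differ in these letters, with matches in capitals (the PBE-box read on the other strand is CATGTG) and the gene's start after the last base. They are EPF2 at chr1:12472568-12472867 (plus strand), BASL at chr5:24489837-24490136 (minus strand) and SPCH at chr5:21589256-21589555 (minus strand).
EPF2: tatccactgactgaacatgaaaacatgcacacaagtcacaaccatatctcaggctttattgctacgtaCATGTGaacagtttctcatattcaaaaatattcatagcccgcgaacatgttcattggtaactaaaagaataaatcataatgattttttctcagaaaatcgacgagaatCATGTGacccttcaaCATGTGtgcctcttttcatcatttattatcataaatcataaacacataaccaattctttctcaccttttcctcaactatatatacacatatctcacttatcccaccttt
BASL: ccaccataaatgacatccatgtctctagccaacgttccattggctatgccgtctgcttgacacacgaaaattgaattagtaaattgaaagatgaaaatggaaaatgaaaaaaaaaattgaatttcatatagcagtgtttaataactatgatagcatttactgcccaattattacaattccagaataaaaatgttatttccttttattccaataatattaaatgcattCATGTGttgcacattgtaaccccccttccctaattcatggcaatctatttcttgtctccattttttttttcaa
SPCH: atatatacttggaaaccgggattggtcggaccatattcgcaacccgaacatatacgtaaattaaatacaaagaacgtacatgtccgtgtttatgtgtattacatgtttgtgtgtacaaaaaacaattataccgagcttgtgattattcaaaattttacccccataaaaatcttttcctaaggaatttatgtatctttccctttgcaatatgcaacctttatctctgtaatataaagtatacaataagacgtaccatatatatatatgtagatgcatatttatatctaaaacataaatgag

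EPF2 held 3 PBE-box matches, which began 232, 124 and 109 bases before its start, BASL held 1 at 73 bases, and SPCH held none. Of the 10 windows 4 held a PBE-box, those of FAMA, BASL, EPF1 and EPF2, and 0 held a G-box. The shares over all 27443 windows were 13.1% for the PBE-box, 7.09% for the G-box and 0.146% for 3 or more PBE-box matches. The wider E-box CANNTG, which takes in both, was found in 6 of the 10 windows and 61.9% of all. Of the genes with a PBE-box, BASL and EPF2 fell with warmth, and FAMA and EPF1 did not pass the temperature test. Of those without, SPCH, MUTE and POLAR fell, and SCRM, TMM and EPFL9 did not pass. A match is a description of letters and not a bound site, and a window without a match does not show that the gene lacks a site elsewhere. Whether these letters had a part in the temperature changes was not tested.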

How the data were processed

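The authors deposited a table of unnormalised counts, reads per gene, for 8 libraries with 1 library per condition. Per the submitters' processing notes, FastQC 0.11.5, HISAT2, Picard, StringTie 1.3.5, HTSeq 0.6.1p1 and the build TAIR10 were used, and their settings and the counting strand are not given in the sources used here. Per the labels' protocols, stranded and unstranded TruSeq kits were both used. How reads of C24 alleles mapped to the reference is unknown and could shift counts of single genes alike in all libraries.

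From the counts, genes were kept at 0.876 CPM (10 counts in the median library) or more in at least 4 libraries. TMM scaling and the quasi-likelihood F-test of edgeR 4.0.16 (R 4.3.3) were run on all 19829 genes kept, with temperature, age and genotype as terms (4 residual degrees of freedom), or with 1 interaction added (3 degrees). P-values were adjusted by Benjamini-Hochberg over all genes, with a threshold of 0.05. The SE is the size of the log2 fold change over the square root of F. Scripts were tested on simulated data. DESeq2 1.42.0, other scalings and filters and leaving out each library were the alternatives. Poisson intervals and floors of 3 counts cover counting error only, since reads carried no molecular identifiers.

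The 10 genes and all lists were chosen with earlier results of these data known. From each list up to 3 genes with the smallest p for temperature and for age are named, and ER is named besides for age. Gene symbols and windows come from TAIR10.1 (RefSeq).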

Additional observations from a re-analysis of the deposited data

How the results depend on the processing

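No paired analysis was possible because the labels give no replicate numbers that a block could use. The matched pairs of the report are those of the factors and enter its fit as factor terms. The number of lineage genes that fell at 27 °C was 5 in the fit reported and 3 to 6 on leaving out each library in turn. It was 3 without the Col hybrid at 22 °C on day 7, where SPCH and EPF2 lost their calls. With the filter raised to 50 counts, it was 2, POLAR and TMM. That filter kept FAMA, SCRM, POLAR, TMM and EPFL9, so SPCH, MUTE, BASL and EPF2 were not tested rather than lost. Similarly, after thinning every library to the depth of the shallowest, which kept the same 5 genes, it was 1, POLAR. The number that rose on day 7 was 4, against 2 with the raised filter and 2 with thinned counts (BASL and EPF2 not tested in either) and 2 to 4 on leaving out a library. The number that fell on day 7 was 2, against 1 with library totals alone and 0 with thinned counts. The age-by-temperature count of genes with a lower term was 0, and 0 to 1 on leaving out a library, the 1 being EPFL9 (−0.68, SE 0.21, adjusted p = 0.0466, edgeR) without the pif4 hybrid at 27 °C on day 4. POLAR and MUTE kept an adjusted p under 0.05 for temperature without any 1 library (edgeR, up to 0.00506 and 0.0317), as did BASL (up to 0.0347).

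EPF2 lost its temperature call with the library total as a covariate (adjusted p = 0.0635, edgeR). TMM passed for temperature with relative log expression scaling, with the raised filter (adjusted p = 0.0495) and without the pif4 hybrid at 22 °C on day 7 (0.0423). None of the values that changed sign was called. For temperature with library totals alone FAMA was 0.0085 and EPFL9 0.084, SCRM was −0.12 with thinned counts, and EPFL9 ran between −0.19 and 0.083 on leaving out a library. For age MUTE was 0.13 with the total as a covariate. For genotype MUTE was 0.071 with that covariate, SCRM 0.098 with thinned counts, and EPF1 0.064 with DESeq2, 0.014 with totals alone and 0.031 with the covariate. On leaving out a library the genotype estimate ran between −0.34 and 0.10 for MUTE, −0.012 and 0.31 for POLAR, −0.29 and 0.41 for EPF1, −0.14 and 0.29 for EPF2 and −0.040 and 0.25 for EPFL9. Why these values moved was not tested, beyond the fewer genes or libraries that remain under a setting. Depth limits SPCH, MUTE, BASL, EPF1 and EPF2 most, with 5, 4, 6, 0 and 2 counts in the shallowest library.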

Other observations

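For each lineage gene whose log2 CPM had an SD of at least 0.5 over the 8 libraries, the genes with the most similar pattern were sought among the 15805 genes whose mean was 5 CPM or more. Likeness is the root mean square distance of log2 CPM, each gene centred on its own mean. For a lineage gene that varies this much, a small value is a close pattern. Nearest to EPF2 was AT3G19200 (distance 0.09) and nearest to EPFL9 was RABG3c (0.07), a small GTPase gene. Nearest to MUTE was AT3G05730 (0.14), annotated as a defensin-like protein, and nearest to BASL was AT1G66100 (0.15), annotated as a thionin. Nearest to POLAR was LEA3 (0.14), a late embryogenesis abundant gene, and nearest to EPF1 was CMPG2 (0.48), the loosest of these. The EPF1 pattern, with an SD of 1.49, rests largely on its 0 counts in the shallowest library, which limits this match. Likeness over 8 libraries that share 3 factors is a description and carries no test.

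Between the lineage genes themselves the 6 closest pairs were TMM and SCRM (distance 0.20), FAMA and SCRM (0.31), TMM and FAMA (0.33), EPF2 and EPFL9 (0.35), TMM and SPCH (0.35) and POLAR and BASL (0.38). No floor on the SD was set here, and genes that vary little also lie close in this measure. The SD of log2 CPM was 0.15 for FAMA, 0.22 for SCRM and 0.31 for TMM. On day 7 FAMA was higher in 4 of 4 pairs and SCRM lower in 4 of 4, so their short distance is not a shared pattern. The order of the 8 libraries was rarely sharp within a gene. Of the 7 steps between neighbouring libraries, ordered by level, the 95% Poisson intervals were apart at 2 for POLAR, 2 for EPFL9, 1 for EPF2 and 0 for the other 7 genes.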
